A study of Mus musculus with 23 samples.

Results

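Whole skin of the mouse back carries a sheet of striated muscle, the panniculus carnosus, under its fat, so RNA from such skin holds transcripts of skeletal muscle fibres. A list of 37 genes of the contractile apparatus, calcium handling and energy supply of those fibres was followed here over all groups of a study of UV and Erbb2 inhibition. The genes were chosen by name, each read from its brightest probe set, and 34 of the 37 had a probe set that names them among 19645 probe sets for 12106 genes. The 34 genes have 45 probe sets in all, and Mybpc1, Mybpc2 and Neb, which encode myosin binding proteins and nebulin, were not analysed here.

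Expression was measured on 23 Affymetrix MOE430A arrays in shaved dorsal skin of adult female mice of the outbred CD-1 stock. The back was painted with AG825 (4 mg in DMSO), a tyrphostin that inhibits the kinase Erbb2, or with DMSO alone, 2 h before 10 kJ/m2 of UV or a sham exposure. AG825 skin gave 4 arrays after sham, 4 at 6 h after UV and 3 at 24 h, and DMSO skin gave 4 arrays in each of the same groups. Sham skin was taken at 6 h, which leaves the 24 h groups without sham skin of their own time. All groups share the shaving, and every AG825 group also received the solvent DMSO. Whether the replicates came from separate animals is not in the labels, and the p-values cover no more than the spread among the arrays.

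In a skeletal muscle fibre, myosin thick filaments pull on actin thin filaments, and the thin filament is switched on when calcium released through the ryanodine receptor binds troponin. The Z disc anchors the thin filaments and carries proteins that sense strain, and creatine kinase, glycolytic enzymes and myoglobin supply energy and oxygen. Fast and slow fibres use different genes for most of these parts, and the panniculus carnosus of the mouse is a mainly fast muscle.

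Detection calls were set against the label of the list. Of the 34 members, 28 were called present on all 23 arrays, among them the muscle actin Acta1, the muscle creatine kinase Ckm and the fast myosins Myh1, Myh2 and Myh4. The exceptions included slow-fibre genes: the slow myosin Myh7 was present on 1 array, the slow troponin I Tnni1 on 3 and the slow troponin T Tnnt1 on 16. Another slow-fibre gene, the troponin C Tnnc1, was present on all 23. Smyd1, a methyltransferase and chaperone of myosin, was present on 16 arrays, the perinatal myosin Myh8 on 20 and the fast alpha-actinin Actn3 on 22. Of 9 genes of cardiac muscle, 0 were present on all arrays. The cardiac actin Actc1 was present on 22, the cardiac troponin T Tnnt2 on 19, the cardiac ryanodine receptor Ryr2 on 15 and Nppb on 13, Myh6, Nppa and Myl4 on at most 3, and Myl7 and Tnni3 on 0. Among genes of muscle precursors and muscle identity, the regulators Myod1, Myog, Myf5 and Pax7 were present on 1, 3, 3 and 3 arrays, and the fetal acetylcholine receptor subunit Chrng on 0. In the same list the satellite cell cadherin Cdh15 was present on 23 arrays, Myf6, the myogenic factor of mature fibres, on 22, and the acetylcholine receptor subunit Chrna1 on 19.

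Several members are printed with the 250 bases before their annotated start, from RefSeq (GRCm38.p6). Their responses to UV are given further below. Myh2 was not tested against Myh1 or Myh4, and a link between these sequences and the responses was not tested. Of the 37 genes, 30 had an entry in the promoter table. Myh2, Myh1 and Myh4 lie next to each other on chromosome 11 of the mouse and encode the myosins of type IIa, IIx and IIb fibres. Capitals in their sequences mark a run of 20 bases that all 3 windows share, which starts 130 bases before the start of Myh2, 165 before that of Myh1 and 163 before that of Myh4. Aligned over their length, the windows were 52.5% identical between Myh2 and Myh1, 52.0% between Myh2 and Myh4 and 57.6% between Myh1 and Myh4. The windows are chr11:67170777-67171026 for Myh2, chr11:67199852-67200101 for Myh1 and chr11:67237562-67237811 for Myh4, all on the plus strand.
Myh2: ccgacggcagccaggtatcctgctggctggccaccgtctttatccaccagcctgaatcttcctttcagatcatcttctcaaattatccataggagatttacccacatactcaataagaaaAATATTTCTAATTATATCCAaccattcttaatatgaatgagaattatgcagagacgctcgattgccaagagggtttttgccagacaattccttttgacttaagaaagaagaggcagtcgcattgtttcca
Myh1: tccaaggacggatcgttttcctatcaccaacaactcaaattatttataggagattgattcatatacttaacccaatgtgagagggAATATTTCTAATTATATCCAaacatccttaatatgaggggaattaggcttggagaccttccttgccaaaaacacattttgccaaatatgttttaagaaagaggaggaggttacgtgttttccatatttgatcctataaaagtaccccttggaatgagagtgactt
Myh4: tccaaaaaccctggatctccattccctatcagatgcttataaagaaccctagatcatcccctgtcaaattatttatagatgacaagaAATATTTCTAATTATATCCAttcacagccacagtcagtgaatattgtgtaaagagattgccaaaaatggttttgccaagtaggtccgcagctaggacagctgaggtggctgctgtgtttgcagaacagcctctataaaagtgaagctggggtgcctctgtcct

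Windows of the same length were searched on both strands for letters that muscle transcription factors are known to bind. The E-box of the myogenic factors, CANNTG, was in the windows of 83.3% of the 30 members and of 69.3% of all 27025 genes in the table. Its form CAGCTG, which the wider motif contains, was in 15 of the 30 members and in 14.7% of all genes. The CArG box, bound by serum response factor, was in 10.0% of the members, namely Acta1, Ldb3 and Myh4, and in 1.62% of all genes. A strict form of the MEF2 box was in the window of Ttn alone, 3.33% of the members against 0.592% of all genes. Looser forms of this box were not counted, so windows without a match, such as those of Myh1 and Myh4, may still hold them. TATAAA was in 23.3% of the members against 14.3% of all genes. A match describes letters and not binding. The capitals mark CAGCTG in Mylpf, the fast regulatory light chain (chr7:127211358-127211607, plus strand), and the CArG box and TATAAA in Acta1 (chr8:123894776-123895025, minus strand).
Mylpf: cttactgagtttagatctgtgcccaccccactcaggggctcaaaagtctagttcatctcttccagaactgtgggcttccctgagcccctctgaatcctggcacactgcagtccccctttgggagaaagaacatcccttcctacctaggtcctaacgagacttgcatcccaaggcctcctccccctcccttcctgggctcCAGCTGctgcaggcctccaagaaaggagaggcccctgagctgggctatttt
Acta1: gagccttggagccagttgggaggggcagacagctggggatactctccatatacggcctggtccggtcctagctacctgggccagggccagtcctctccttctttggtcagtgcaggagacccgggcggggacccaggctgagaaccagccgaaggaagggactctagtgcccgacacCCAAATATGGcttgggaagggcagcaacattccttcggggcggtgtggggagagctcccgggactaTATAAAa

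Some facts of the arrays bear on what follows. Between 62.3% and 71.5% of probe sets were called present on an array. The ratio of 3' to 5' signal of Gapdh, a measure of RNA integrity and labelling, was 4.67 on AG825 sham replicate D, 4.49 on DMSO 6 h replicate F and 4.00 on AG825 6 h replicate D. It lay between 0.94 and 2.21 on the other arrays. A difference below is a difference of log2 values with its standard error from a limma model of all 23 arrays, and a gene is said to rise or fall where its p, adjusted by Benjamini-Hochberg over all 19645 probe sets, was under 0.05.

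The first question was what UV did to the muscle genes of DMSO skin by 6 h. Of the 34 members 17 rose and 0 fell, where 7.77% of all probe sets rose and 10.7% fell. All 34 differences were positive, with a median of 0.79, while the median over all probe sets was 0.01. In 17 members every irradiated array was above every sham array, a separation seen in this direction for 8.83% of probe sets. In whole skin, more muscle fibres in the sample, more RNA per fibre and less RNA from other cells cannot be told apart.

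**Figure D1:**
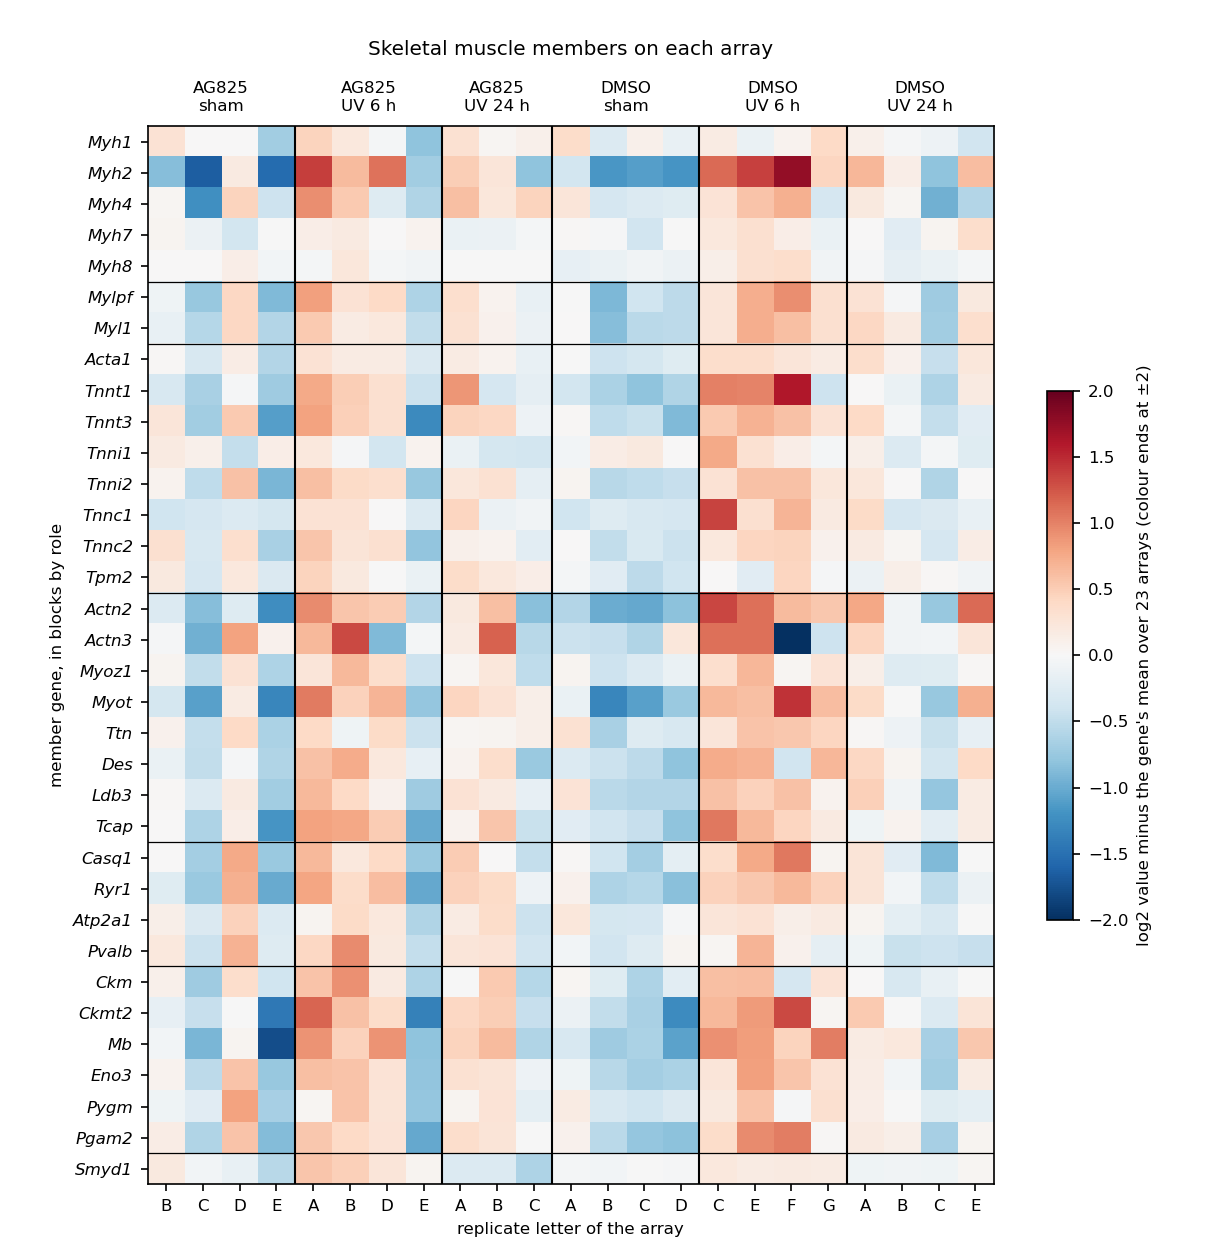
Log2 values of the 34 measured members (rows, in blocks by role) on the 23 arrays (columns, by group, with replicate letters), as the difference from each gene's mean over all arrays. The 4 DMSO arrays at 6 h after UV are mostly red and DMSO sham replicates B, C and D mostly blue, while AG825 6 h replicate E is blue for most members and Actn3 is far below its mean on DMSO 6 h replicate F.

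Of 5 myosin heavy chains 2 rose, Myh2 and Myh8, and the chains were not tested against each other. Myh2, the heavy chain of fast oxidative fibres, had log2 values of 12.18, 12.40, 12.80 and 11.47 on the irradiated arrays, against 10.68, 9.88, 9.94 and 9.85 on the sham arrays. The 2 sets of arrays were well apart, and the difference of 2.12 ± 0.45, a 4.36-fold change, was the largest of any member (limma adjusted p = 0.00233). Myh1, the heavy chain of type IIx fibres, had 12.36, 12.08, 12.28 and 12.60 on the irradiated arrays and 12.58, 11.93, 12.31 and 12.06 on the sham arrays. These values overlapped throughout, with a difference of 0.11 ± 0.22 (limma adjusted p = 0.778). Myh4, the heavy chain of the fastest fibres, had 11.89, 12.17, 12.31 and 11.27 after UV and 11.85, 11.27, 11.33 and 11.36 after sham, which overlapped too (0.46 ± 0.34, limma adjusted p = 0.388). Myh8 rose by a small 0.30 ± 0.09 with overlapping arrays (limma adjusted p = 0.025). It was the dimmest member, with a mean log2 value of 4.30, and was called present on 2 of the DMSO sham arrays. Of 15 alternative fits named below, apart from those that left out 1 array, the Myh8 call held in 5. It was lost with dChip and GCOS signal. The coding sequences of these genes are alike, and cross-hybridisation between them was not tested. Dimmer probe sets of Myh1 and Mb, called absent on all 23 arrays, had differences of -0.04 ± 0.11 and -0.16 ± 0.11.

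Both light chains of fast myosin rose. Mylpf had log2 values of 12.39, 12.87, 13.07 and 12.46 after UV, against 12.13, 11.25, 11.75 and 11.63 after sham. Its lowest irradiated array was above the highest sham array, and the difference was 1.01 ± 0.30 (limma adjusted p = 0.0232). The essential light chain Myl1 rose by 0.95 ± 0.26 (limma adjusted p = 0.0133), again with no overlap.

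Among 8 thin filament genes 3 rose. Tnnc1, the troponin C of slow fibres and the heart, had log2 values of 7.50, 6.48, 6.84 and 6.34 after UV and 5.75, 5.89, 5.83 and 5.82 after sham. The sham arrays lay within a narrow band and all irradiated arrays were above it (0.97 ± 0.20, limma adjusted p = 0.00188). Tnnt1 rose by 1.39 ± 0.34 (limma adjusted p = 0.00612), but replicate G, at 6.42, fell within the sham values of 6.03 to 6.48, and the gene was called present on 3 irradiated arrays and 1 sham array. Acta1 rose by 0.53 ± 0.17 (limma adjusted p = 0.0352), with values from 13.69 to 13.89 after UV and from 13.12 to 13.52 after sham. The fast troponins Tnnt3, Tnni2 and Tnnc2 had differences of 0.98 ± 0.37, 0.80 ± 0.29 and 0.60 ± 0.24 and did not pass (limma adjusted p = 0.07, 0.0585 and 0.0912), though none of their irradiated arrays overlapped the sham arrays. Tpm2, a tropomyosin, had 0.34 ± 0.16 and Tnni1 had 0.21 ± 0.16.

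The Z disc, titin and intermediate filament genes rose in 5 of 8. Actn2, the alpha-actinin that crosslinks thin filaments at the Z disc, had log2 values of 11.87, 11.65, 11.16 and 11.09 after UV and 9.95, 9.54, 9.52 and 9.71 after sham, a difference of 1.76 ± 0.38 (limma adjusted p = 0.00244). Myot, the Z disc protein myotilin, had 10.59, 10.54, 11.39 and 10.56 after UV and 9.81, 8.63, 8.85 and 9.19 after sham (1.65 ± 0.38, limma adjusted p = 0.00397). For both genes every irradiated array was above every sham array. Tcap, which caps titin at the Z disc, rose by 1.04 ± 0.33, and Des, the muscle intermediate filament desmin, by 0.94 ± 0.27. A dimmer probe set of Des, called present on 11 arrays, had 0.15 ± 0.14 with overlap and did not pass (limma adjusted p = 0.498). Ttn, the giant spring of the sarcomere, rose by 0.67 ± 0.22, with overlap. Myoz1, a calcineurin-binding Z disc protein, had 0.52 ± 0.22 and did not pass. Ldb3, which binds alpha-actinin, had 0.78 ± 0.28 on its brightest probe set (limma adjusted p = 0.0582), while its other probe sets passed, with 1.56 ± 0.46 and 0.64 ± 0.14 (limma adjusted p = 0.0218 and 0.00222).

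Actn3, the alpha-actinin of fast fibres, did not pass, while its paralogue Actn2 did, and the genes were not tested against each other. Its log2 values after UV were 11.04, 11.05, 7.12 and 9.52, against 9.51, 9.49, 9.33 and 10.17 after sham. Replicate F was far below all other arrays of the study and was the 1 array on which the gene was called absent. This array had the Gapdh ratio of 4.49, and the part of that ratio in the Actn3 value was not tested. The difference was 0.06 ± 0.64 (limma adjusted p = 0.963). Over the study Actn3 spanned 4.14 log2 units, the widest range of any member.

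**Figure D2:**
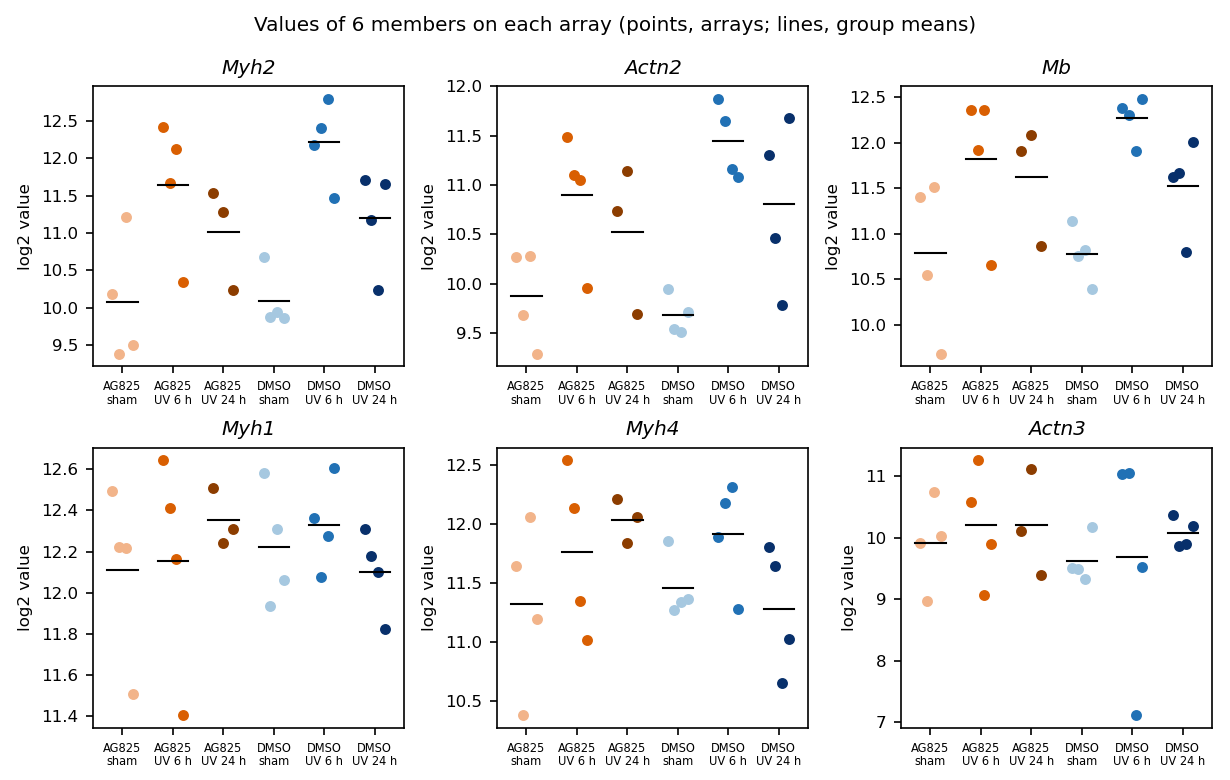
Log2 values of 6 members on each array (points) with group means (lines), AG825 groups left of DMSO groups and time after UV running left to right within each. Myh2, Actn2 and Mb are higher on all 4 irradiated DMSO arrays at 6 h than on the sham arrays, while Myh1 and Myh4 overlap and Actn3 has 1 value of 7.12 at 6 h. The vertical scale differs between genes and does not start at 0.

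Of the 4 calcium genes Ryr1, the calcium release channel, rose, by 1.01 ± 0.34 (limma adjusted p = 0.0437). Its irradiated values of 10.91 to 11.11 did not overlap the sham values of 9.62 to 10.55. Casq1, which stores calcium in the sarcoplasmic reticulum, had 0.87 ± 0.34 and did not pass (limma adjusted p = 0.0816), nor did the calcium pump Atp2a1 with 0.33 ± 0.20 or the calcium buffer Pvalb with 0.32 ± 0.26.

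Energy and oxygen genes rose in 4 of 6. Mb, myoglobin, had log2 values of 12.38, 12.30, 11.91 and 12.48 after UV, against 11.14, 10.75, 10.83 and 10.39 after sham, a 2.81-fold difference (1.49 ± 0.39, limma adjusted p = 0.0108). Ckmt2, the mitochondrial creatine kinase of striated muscle, rose by 1.35 ± 0.42, with values of 8.84 to 10.13 after UV and 7.54 to 8.69 after sham. The glycolytic enzymes Eno3 and Pgam2 rose by 0.97 ± 0.29 and 1.10 ± 0.34. The cytosolic creatine kinase Ckm (0.55 ± 0.29) and the glycogen phosphorylase Pygm (0.48 ± 0.26) did not pass. Smyd1 had 0.21 ± 0.13 with no overlap and did not pass (limma adjusted p = 0.271).

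The members can also be read by fibre type. Of 13 measured genes of fast fibres 3 rose, with a median difference of 0.60. Of 4 genes of slow fibres 2 rose, also with a median of 0.60. Over all probe sets 7.77% rose. The slow genes Myh7 and Tnni1 were called present on 1 and 3 arrays, so the slow median rests in part on genes mostly called absent. Fast and slow genes were not tested against each other. The fast genes that rose were Myh2, Mylpf and Myl1, and the slow ones Tnnc1 and Tnnt1.

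**Figure D3:**
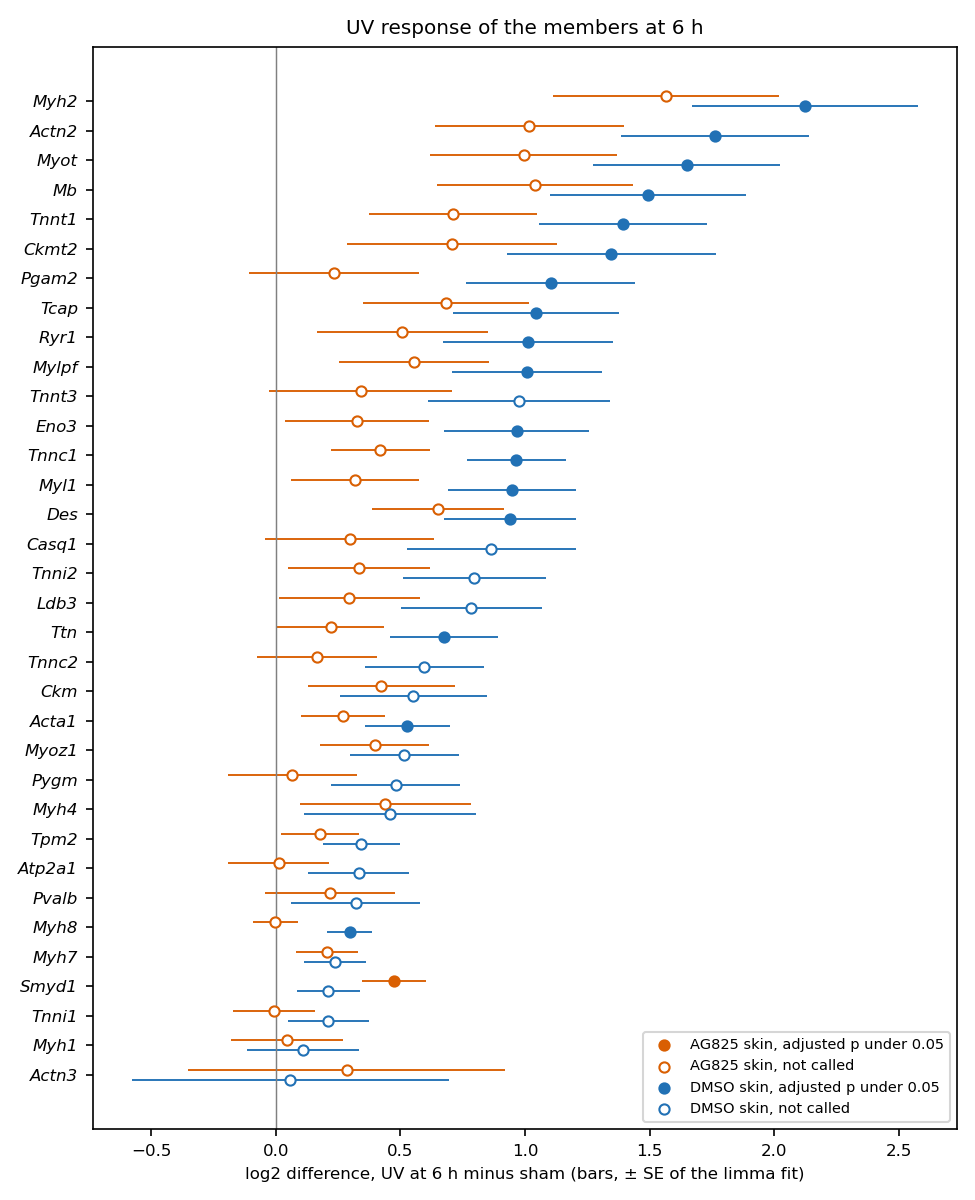
Log2 difference of UV at 6 h minus sham for each member in AG825 skin (orange) and DMSO skin (blue), with bars of ± SE from the limma fit and filled points where the adjusted p was under 0.05. In DMSO skin 17 points are filled and all 34 lie to the right of 0; in AG825 skin the Smyd1 point is filled.

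The count in DMSO skin leaned on several arrays. It was 7 without DMSO sham replicate B, 10 without C and 10 without D, 7 without DMSO 6 h replicate E and 9 without F. Present calls made up 62.3 to 69.3 percent of all probe sets on the DMSO 6 h arrays and 66.1 to 71.3 percent on the DMSO sham arrays, and the count was 8 with this percent as a covariate and 5 without the 3 arrays where it was smallest. When each array was left out in turn, Myh2, Actn2, Myot, Mb, Tnnt1 and Tnnc1 passed in 23 of 23 fits, and the other 11 were lost in at least 1.

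Genes of other cell types moved between the same DMSO groups. Of 15 genes of the growing hair follicle 14 fell, and the follicle score, the mean of their centred log2 values, lay between -3.27 and -0.54 on the irradiated arrays and between 0.90 and 1.52 on the sham arrays. Of 9 leukocyte genes 8 rose, with scores of 0.65 to 0.94 after UV and -1.89 to -0.89 after sham. Endothelial genes rose in 7 of 10 and fibroblast genes in 3 of 9. Of 10 adipocyte genes 0 passed by limma. At an unadjusted p under 0.05 by limma there was 1 adipocyte gene, 10.0% of that list against 31.3% of all probe sets. With the follicle score as a covariate 0 of 34 members passed and their mean difference was 0.22, where it was 0.80 without it. Because the follicle scores of the UV and sham arrays do not overlap, the part of this difference that goes with the lower follicle score cannot be told apart from that which goes with UV.

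Muscle genes outside the members rose as well. Of 26 other genes of the sarcomere and the fibre membrane 18 rose and 0 fell. Myoz2, a calcineurin-binding Z disc protein of slow fibres and the heart, rose by 2.22 ± 0.39 (limma adjusted p = 0.000422), the strain-responsive Z disc proteins Csrp3 and Ankrd2 by 2.18 ± 0.46 and 2.01 ± 0.42, and Lmod2, which nucleates actin filaments, by 2.02 ± 0.41. Of 24 other calcium and energy genes 14 rose. They include Ankrd1, a strain-responsive relative of Ankrd2, by 2.49 ± 0.45 (limma adjusted p = 0.000544) though it was present on 1 of 4 sham arrays, Sln, an inhibitor of the calcium pump, by 2.07 ± 0.43, Cox6a2, a muscle form of a cytochrome oxidase subunit, by 1.14 ± 0.32, and Cacng1, a calcium channel subunit, by 0.80 ± 0.19.

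Of 17 regulators of muscle identity and genes of satellite cells 3 rose and 0 fell, where 7.77% of all probe sets rose and 10.7% fell. In this list 15 of 17 differences were positive. By limma 35.3% of the list had an unadjusted p under 0.05, against 31.3% of all probe sets. Myf6, the myogenic factor of mature fibres, rose by 1.53 ± 0.27 (limma adjusted p = 0.000457) and Chrnb1, an acetylcholine receptor subunit, by 0.59 ± 0.14. Myog also rose but was called absent on all 8 of these arrays. Cdh15, a cadherin of satellite cells, had 0.26 ± 0.10 and did not pass. In a list of 8 atrophy and denervation genes, the metallothioneins Mt1 and Mt2, which many cell types express, rose by 0.72 ± 0.17 and 0.68 ± 0.13, Foxo1, a driver of atrophy, fell by 0.57 ± 0.18, and Runx1, absent on all 8 arrays, passed as higher.

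Genes of other muscle types were counted in the same contrast, in which 7.77% of all probe sets rose and 10.7% fell. Their difference from the members was not tested. Of 12 smooth muscle genes 1 rose and 2 fell: Synpo2, an actin-bundling protein that striated muscle also makes, rose by 0.65 ± 0.17, and Smtn and Tagln, both of the smooth muscle cytoskeleton, fell by 0.98 ± 0.22 and 0.76 ± 0.20. Of 9 cardiac genes 2 rose: Actc1, the cardiac actin, by 0.47 ± 0.13, and the natriuretic peptide Nppb, present on 4 irradiated and 0 sham arrays. Of 5 genes of Schwann cells and nerve 0 passed by limma, with Pmp22, a myelin protein, at 0.82 ± 0.30. By limma 2 of the 5 had an unadjusted p under 0.05, a level reached by 31.3% of all probe sets.

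The second question was the same contrast in AG825 skin. Of the 34 members 1 rose, Smyd1, and 0 fell, where 1.48% of all probe sets rose and 1.26% fell. By limma 8 members had an unadjusted p under 0.05, 23.5% of the members against 15.2% of all probe sets. Of the differences 32 were positive, with a median of 0.33 against 0.03 over all probe sets. Smyd1 had log2 values of 8.45, 8.36, 8.14 and 7.94 after UV, against 8.09, 7.83, 7.74 and 7.33 after sham, which overlap (0.47 ± 0.13, limma adjusted p = 0.0474). That call held in 3 of 23 fits with 1 array left out, those without AG825 sham replicate B, AG825 6 h replicate E or AG825 24 h replicate C. With the replicate letter as a block, Smyd1 did not pass (0.44, limma adjusted p = 0.0695) and Myh2 did (1.23, limma adjusted p = 0.0451).

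Myh2 had the largest member difference in AG825 skin as well. Its values were 12.41, 11.67, 12.12 and 10.34 after UV and 10.19, 9.38, 11.22 and 9.49 after sham (1.56 ± 0.45, limma adjusted p = 0.0703). Replicates A, B and D were above all sham arrays, and replicate E was not. Mb (1.04 ± 0.39), Actn2 (1.02 ± 0.38) and Myot (0.99 ± 0.38) had the next differences and did not pass. Without AG825 6 h replicate E, which was the lowest of its group in 31 of 34 members, 5 members passed: Myh2, Myot, Smyd1, Mb and Tcap.

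Outside the members, some muscle genes passed in AG825 skin, among them 4 of the 26 other genes of the sarcomere and the fibre membrane. Ankrd1 rose by 2.24 ± 0.45, Ankrd2 by 1.82 ± 0.42, Mybph, a myosin binding protein, by 1.72 ± 0.33, Lmod2 by 1.57 ± 0.41 and Xirp1, an actin-binding repeat protein of muscle, by 1.32 ± 0.32. Myf6 rose by 1.01 ± 0.27. Csrp3 had 1.60 ± 0.46 and did not pass (limma adjusted p = 0.0698). In this contrast 0 of 15 hair follicle genes passed by limma. At an unadjusted p under 0.05 by limma there was 1, 6.67% of that list against 15.2% of all probe sets. The follicle score lay between -1.82 and 1.27 after UV and between -0.27 and 1.50 after sham.

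The third question was whether the drug changed the response. No member passed in the interaction of drug and UV at 6 h by limma, nor did any of the 19645 probe sets (0.0%). By limma 1 member, Myh8, had an unadjusted p under 0.05, 2.94% of the members against 6.15% of all probe sets. The median interaction of the members was -0.44 and the mean -0.37. The mean rested on AG825 6 h replicate E: it was -0.13 without that array. It was -0.18 with array weights, 0.02 with the hair follicle score as a covariate and -1.05 with the replicate block. That block leaves DMSO 6 h skin to replicates C and E, because the letters F and G occur in no other group. In 32 of 34 members the difference between UV and sham was smaller in AG825 skin than in DMSO skin, as the plot of both responses shows. The interaction was positive in 5.88% of the members and in 53.6% of all probe sets. The members varied together from array to array, so their count does not stand for 34 separate observations. For Myh2 the interaction was -0.56 ± 0.64, for Actn2 -0.74 ± 0.54 and for Mb -0.45 ± 0.56. A p that misses the threshold does not show that the responses were alike.

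AG825 and DMSO were also set against each other at each time. After sham 0 of 34 members differed (limma; 0 at an unadjusted p under 0.05), with a median AG825 minus DMSO difference of 0.15, and 0.0% of all probe sets passed. At 6 h after UV 0 members differed by limma, as did 0.0% of all probe sets, and the member median was -0.31. Tnnc1 alone had an unadjusted p under 0.05 by limma (-0.55 ± 0.20), 2.94% of the members against 7.20% of all probe sets. The mean difference of -0.26 was -0.0090 without AG825 6 h replicate E and 0.10 with the follicle score as a covariate. It was -0.77 with the replicate block, which again leaves DMSO 6 h skin to replicates C and E. Tnnc1 had log2 values of 6.45, 6.44, 6.17 and 5.89 in AG825 skin and 7.50, 6.48, 6.84 and 6.34 in DMSO skin, which overlap. At 24 h 0 members differed by limma, as did 0.0% of all probe sets, and the member median was 0.14. Smyd1 alone had an unadjusted p under 0.05 by limma, 2.94% of the members against 10.6% of all probe sets. The interaction at 24 h had 0 members past the threshold by limma, where 0.00509% of probe sets passed as lower, and a median of 0.00. There 0 members had an unadjusted p under 0.05, against 5.34% of all probe sets.

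No member passed against sham at 24 h after UV. In DMSO skin 0 of 34 members passed against sham by limma, where 4.89% of probe sets rose and 3.83% fell, and the median difference was 0.30. By limma 4 members had an unadjusted p under 0.05, 11.8% of the members against 20.2% of all probe sets. In AG825 skin 0 members passed by limma, where 3.35% of probe sets rose and 1.49% fell. There 1 member had an unadjusted p under 0.05 by limma, 2.94% of the members against 20.6% of all probe sets. The median member difference in AG825 skin was 0.29, where it was 0.33 at 6 h. Actn2 in DMSO skin had log2 values of 11.31, 10.47, 9.78 and 11.68 at 24 h, against 9.95, 9.54, 9.52 and 9.71 after sham (1.13 ± 0.38, limma adjusted p = 0.0699). Myh2 had 11.71, 11.18, 10.24 and 11.66 at 24 h in DMSO skin and 11.53, 11.28 and 10.23 in AG825 skin, a spread of over 1 log2 unit in each group. Outside the members, Ankrd1 (1.81 ± 0.45), Ankrd2 (1.35 ± 0.42) and Myoz2 (1.25 ± 0.39) were higher than sham at 24 h in DMSO skin and passed.

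The 24 h and 6 h arrays were also compared directly. In DMSO skin 33 of 34 differences were negative with a median of -0.51, but 0 members passed by limma, where 0.0204% of probe sets fell. By limma 7 members had an unadjusted p under 0.05, 20.6% of the members against 13.6% of all probe sets. In 7 members every 24 h array was below every 6 h array, as in 2.81% of probe sets. In AG825 skin the median was -0.05, against -0.08 over all probe sets, and 10 of 34 differences were positive. The mean difference there, -0.10, was 0.03 without AG825 6 h replicate A, 0.06 without AG825 24 h replicate C and -0.35 without AG825 6 h replicate E. In AG825 skin 1 member fell, Smyd1, where 0.0662% of probe sets fell. It had 7.61, 7.61 and 7.26 at 24 h, against 8.45, 8.36, 8.14 and 7.94 at 6 h, with no overlap (-0.72 ± 0.14, limma adjusted p = 0.0391). The call was lost in 7 of 23 fits with 1 array left out, namely those without AG825 24 h replicate A, B or C, AG825 6 h replicate A, AG825 sham replicate C, or DMSO sham replicate B or C. The other probe sets of Smyd1 did not pass in either contrast and were called present on at most 5 arrays.

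**Figure D4:**
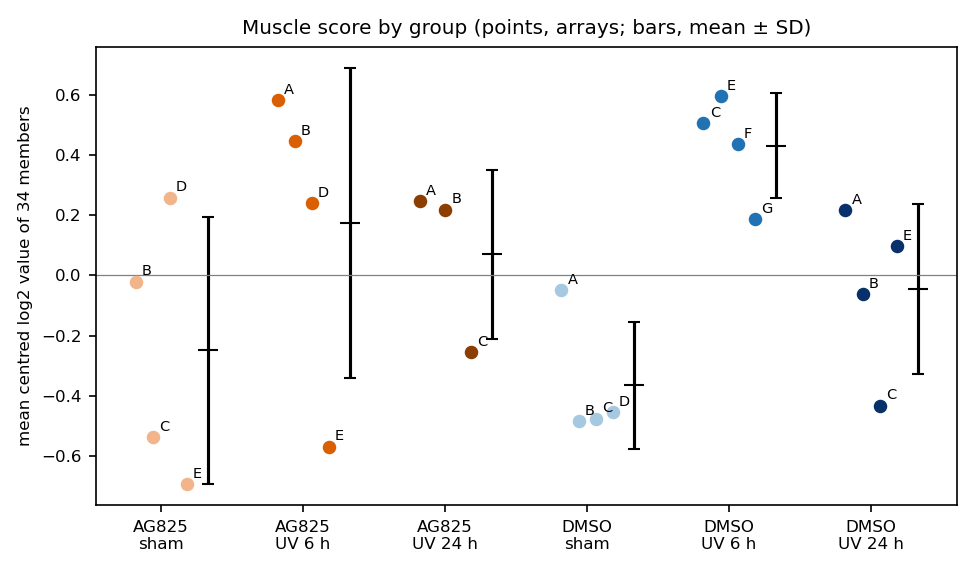
Muscle score of each array, the mean centred log2 value of the 34 members, by group (points with replicate letters) with the mean ± SD of each group. The DMSO 6 h arrays lie between 0.19 and 0.60, above all DMSO sham arrays at -0.48 to -0.05, while the AG825 sham and 6 h arrays overlap, with AG825 6 h replicate E at -0.57.

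Beyond the groups, the members varied together from array to array. The first principal component of the 34 members held 73.5% of their variance over all arrays and 66.1% after the group means were subtracted. The muscle score was -0.25 ± 0.44 after sham, 0.17 ± 0.51 at 6 h after UV and 0.07 ± 0.28 at 24 h in AG825 skin (SD, n = 4, 4 and 3). In DMSO skin it was -0.37 ± 0.21 after sham, 0.43 ± 0.18 at 6 h after UV and -0.05 ± 0.28 at 24 h (SD, n = 4 each). Within AG825 sham skin replicate D was the highest array in 30 of 34 members and replicate E the lowest in 24. Within AG825 6 h skin replicate E was the lowest in 31 and replicate A the highest in 24. DMSO sham replicate A was the highest of its group in 28 members, and DMSO 24 h replicate C the lowest in 23. AG825 sham replicate D also had the Gapdh ratio of 4.67, and the part of that ratio in its values was not tested. Of the other arrays with a high ratio, DMSO 6 h replicate F was the highest of its group in 13 members and AG825 6 h replicate D in 1.

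The members followed this shared course unequally. After subtracting group means, Tnni2, Eno3, Tnnc2 and Tnnt3 correlated with the mean of the other members at r between 0.95 and 0.96 over 23 arrays. Actn3 stood at 0.29, Myh7 at 0.06 and Tnni1 at -0.13, and Myh7 and Tnni1 were absent on most arrays. Within groups Actn3 had an SD of 0.99, Myh2 of 0.70, Ckmt2 of 0.65 and Mb of 0.61, while Acta1 had 0.25 and Tpm2 0.23. The points share library and array, and these values are descriptions.

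Genes outside every list followed the muscle score closely. Among 11907 genes searched, the highest correlation within groups over 23 arrays was that of Tmod4, the tropomodulin of skeletal muscle (r = 0.93), followed by Slc25a4, the ADP/ATP carrier of muscle mitochondria (r = 0.92), and Hspb2, a small heat shock protein of muscle (r = 0.92). The other 12 of the first 15 were Pde4dip, Park7, Ehbp1l1, Smarcd3, Macrod1, Mapk12, Sod1, Sh3bgr, Mustn1, Tpm1, Cryab and Smtnl1, down to r = 0.85. Without the 2 arrays farthest from the median score, r was 0.89 for Tmod4 and 0.75 for Smtnl1.

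The array with the lowest muscle score of its group had the highest hair follicle score in 5 of 6 groups, all but DMSO 6 h. The array with the highest muscle score had the lowest follicle score in 3 of 6. AG825 6 h replicate E had a follicle score of 1.27, within the sham range, and AG825 sham replicate D one of -0.27, below all other sham arrays. The part of the follicle in the muscle values of single arrays was not tested.

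**Figure D5:**
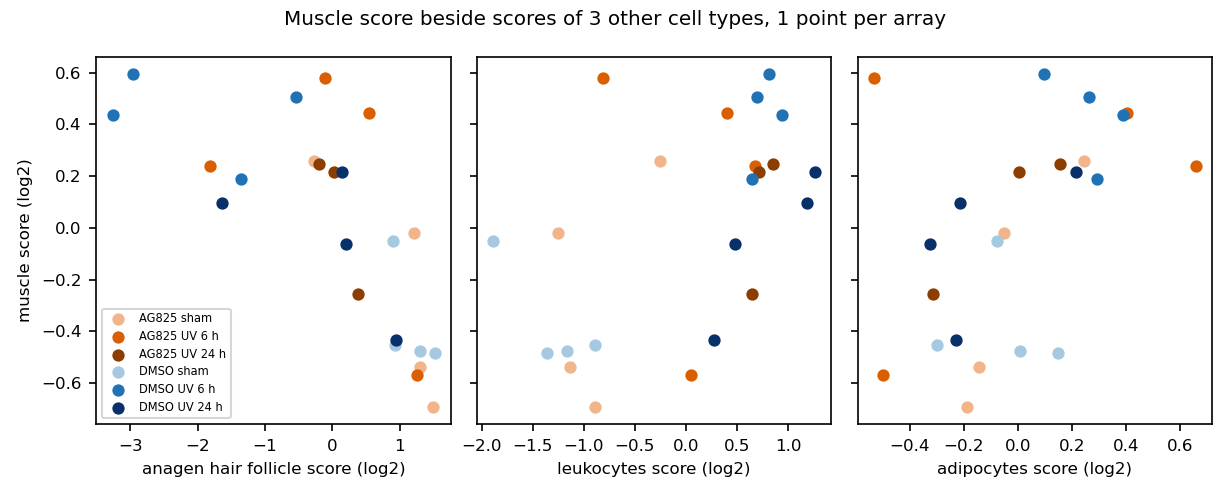
Muscle score of each array (vertical) beside its hair follicle, leukocyte and adipocyte scores (horizontal), all mean centred log2 values, coloured by group. All arrays with a follicle score of 0.90 or more have a muscle score of -0.02 or less, and the DMSO 6 h arrays combine follicle scores of -0.54 or less with muscle scores of 0.19 or more.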

How the data were processed

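Labelled RNA of whole skin was hybridised to 23 arrays, 1 per sample, grouped by the sample labels. All main values come from the deposited log2 table, which per the submitters' processing notes is from RMA (version not stated). Per the file headers, the authors also deposited signal intensities on a linear scale with detection calls, from dChip for 23 arrays and from GCOS for 22 (without DMSO 6 h replicate G). Detection calls and Gapdh ratios come from the dChip table. The GCOS signal was scaled here to a trimmed mean of 500 on each array, and a pseudocount of 16 was added to both signals before log2. Probe sets were named through the platform table: 17825 named 1 gene, 445 several and 1375 none.

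A mean for each of 6 groups was fitted to all 19645 probe sets (limma 3.58.1, R 4.3.3, eBayes), with 11 two-sided comparisons and Benjamini-Hochberg adjustment over all probe sets at 0.05. The steps were tested on simulated data. The score of a list is the mean of its genes' centred log2 values and has no test. The members and lists were chosen with earlier results of these data known. Named genes are all members, from each other list the 4 with the smallest adjusted p at 6 h in DMSO skin and genes that passed elsewhere, of which the text prints part, and the 15 most correlated with the muscle score. Same-letter replicates of AG825 6 h and AG825 sham skin deviated together (B 0.17, D 0.65 and E 0.62), so the block is given beside that contrast; this comes from the data, and no other contrast with 3 or more such pairs had all over 0.1. Alternatives were dChip and GCOS signal, a filter on detection, fewer groups or arrays, array weights, covariates, a replicate block and other eBayes settings. Others, on the Gapdh ratio, were chosen after seeing the data. Background and cross-hybridisation limit dim probe sets, and the number of arrays limits precision.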

Additional observations from a re-analysis of the deposited data

Results flagged for a closer look

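Of 175 groups of 4 arrays tested for a sample far from the rest, 14 had one, where chance gives about 1 in 20. DMSO sham replicate A was high: its muscle score was -0.0494, against -0.48 to -0.45 on the other 3 sham arrays, and its log2 value was 10.68 for Myh2 (others 9.85 to 9.94), 11.85 for Myh4 (others 11.27 to 11.36), 12.61 for Tnni2 (others 12.01 to 12.10) and 10.24 for Ldb3 (others 9.38 to 9.43). DMSO 6 h replicate F was high for Myot, at 11.39 (others 10.54 to 10.59), and low for Des, at 9.71 (others 10.75 to 10.83). This array had the Gapdh ratio of 4.49, and the part of that ratio in these values was not tested.

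The other values far from their group were single ones. AG825 6 h replicate E had 9.75 for Tcap (others 11.26 to 11.56), and replicate B of that group had 4.52 for Myh8 (others 4.23 to 4.27). AG825 sham replicate D had 7.45 for Tnni1 (others 8.02 to 8.09), a probe set called absent on all 4 arrays of that group. DMSO sham replicate C had 5.85 for Myh7 (others 6.22 to 6.26). At 24 h in DMSO skin, replicate A had 11.01 for Pvalb (others 10.63 to 10.67), replicate E had 7.93 for Smyd1 (others 7.80 to 7.82) and replicate C had 9.71 for Pgam2 (others 10.42 to 10.56).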

How the results depend on the processing

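The 17 members called higher at 6 h in DMSO skin became 22 with dChip signal, 15 and 13 with GCOS signal (pseudocounts of 16 and 1), 18 of 33 with a detection filter, 22 with only the groups compared, 19 with array weights, 19 with the median over probe sets and 17 with other eBayes settings. The count was 12 with the Gapdh ratio as a covariate and 13 without the 3 arrays of the highest ratio. It moved to 5 when the 3 arrays with the smallest percent present were dropped, to 8 with that percent and to 8 with the adipocyte score as a covariate, to 0 with the hair follicle score, and to 27 with the replicate letter as a block; each array left out in turn gave 7 to 21. Letters F and G occur in DMSO 6 h skin alone, so with the replicate block the mean of that group rests on replicates C and E. The follicle covariate left Mylpf with a difference of -0.0325. GCOS signal shifted the median of all probe sets by -0.11 and -0.14 in this contrast.

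At 6 h in AG825 skin the count of 1 became 0 with dChip signal, both GCOS settings, only the groups compared, without the arrays of low percent present, with percent present or the follicle score as covariate, with the median over probe sets, with other eBayes settings and without the arrays of high Gapdh ratio. It became 3 with array weights and 2 with the Gapdh covariate, and leaving out 1 array gave 0 to 5. With the replicate block it stayed at 1, but the gene was Myh2 and not Smyd1. The call at 24 h against 6 h in AG825 skin became 0 with dChip signal, both GCOS settings, only the groups compared, without the arrays of low percent present, with percent present as covariate and with the median over probe sets; leaving out 1 array gave 0 to 1. At 24 h against sham the count of 0 in AG825 skin became 19 with array weights, and in DMSO skin it became 1 with dChip signal, 3 with array weights, 1 with the adipocyte and 1 with the Gapdh covariate, and 4 with the replicate block. There, leaving out 1 array gave 0 to 2: 2 without DMSO 24 h replicate C and 1 without AG825 6 h replicate E. The count at 24 h against 6 h in DMSO skin became 1 with dChip signal, and in the drug comparisons and interactions it stayed at 0 under each alternative. The cause of these shifts was not tested.

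The labels do not say what the replicate letters mark. Over 35 pairs of same-letter arrays the correlation of deviations from the group means ran from -0.23 to 0.67, with a median of 0.17, and 21 were over 0.1. With this block the mean member difference at 6 h in DMSO skin was 1.32. That value rests on irradiated replicates C and E, because the letters F and G occur in no other group.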

Other observations

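A few muscle-related genes outside the members passed where the members did not. At 24 h after UV the glycolytic enzyme Pgk1, which all cells use, was higher than sham by 0.47 ± 0.13 in AG825 skin (limma adjusted p = 0.0426) and by 0.41 ± 0.12 in DMSO skin (limma adjusted p = 0.0403). Dysf, the membrane repair protein dysferlin, was higher by 0.49 ± 0.14 at 24 h in DMSO skin (limma adjusted p = 0.0254). The metallothioneins Mt1 and Mt2 were higher by 0.92 ± 0.17 and 0.90 ± 0.13 at 6 h in AG825 skin, and Mt2 was higher by 0.57 ± 0.15 at 24 h. Nppb passed against sham at both times in both drug groups and was called absent on all 8 sham arrays.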
